A study of Mus musculus with 2 samples.

Results

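The outer segment of a photoreceptor is a modified cilium packed with membrane discs, and 9 genes that build or anchor it were followed here: Prph2, Rom1, Rp1, Rpgr, Rpgrip1, Prom1, Pcdh15, Impg1 and Impg2. They were chosen by gene symbol, and all 9 were found among the 32286 features listed by both libraries. RNA was counted by 3′ tags in single cells (10x Genomics) of papain-dissociated optic cup from Abca4KO mice. Abca4 encodes a retinoid transporter of the disc membrane. The tested vector, AAV2.8-Sponge.mir181, is named for a transcript that binds miR-181, and the fellow eye was given the control AAV2.8-GFP. Both were injected under the retina. Each group is 1 library, so no test was possible and every interval below covers counting error only.

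Both groups carry the Abca4 knockout, and no uninjected or wild-type eye was analysed here. Different ages can be read from the records: injection at 2 months with collection after 4 more months in the series text, and 4 months in the sample labels. How many mice were used, whether eyes were pooled and which promoter drives each vector are not given in sources used here. The eGFP feature was counted mostly in the library labelled sponge. There 5484 UMIs (unique molecular identifiers, the counted molecules) were found, 4730 of them in cells resembling retinal pigment epithelium (RPE). In the library labelled GFP 12 UMIs were found. Whether the labels are exchanged, or the sponge vector carries eGFP and the control another GFP sequence, was not tested. The libraries are therefore called by their labels throughout, and the direction of each difference rests on those labels. Counts of Abca4 were present in both libraries (7383 and 8855 UMIs labelled sponge and GFP), but a 3′ tag does not check the deletion.

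The disc rim is shaped by the tetraspanins Prph2 (peripherin-2) and Rom1. Rp1 binds the microtubules of the axoneme, and Rpgr and its anchor Rpgrip1 sit at the connecting cilium, through which all outer segment cargo passes. Prom1 (CD133) and the protocadherin Pcdh15 act where new discs form and where the calyx of the inner segment meets the outer segment, and Impg1 and Impg2 are proteoglycans of the matrix between photoreceptors and RPE. Variants in these genes cause retinal dystrophies in people. As background, mouse rods far outnumber cones and carry most of the outer segment membrane of the retina.

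The microRNAs named by the vector are printed first because they define what a direct target would contain. Both mature sequences (RefSeq, GRCm38.p6) share 1 seed, given in capitals.
miR-181a-5p: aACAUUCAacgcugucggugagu
miR-181b-5p: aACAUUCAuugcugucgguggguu
The matching site, TGAATGT, was searched in the longest annotated 3′ UTR of each gene (GENCODE M21). Of the 9 genes, 1 held it, namely Impg1, and so did 16.4% of the 21024 genes with an annotated 3′ UTR. The stretch around the site, at chr9:80313413-80313441 on the minus strand of GRCm38, is shown 5′ to 3′ with the site in capitals, which here is followed by an A.
Impg1 site: tctcttatgtaTGAATGTagtaccaagaa
The site spans bases 941 to 947 of the 1041 bases of the UTR. The other 8 UTRs lacked these letters. A match is a description of sequence, and repression at this site was not measured.

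CRX is the homeodomain factor of photoreceptors. Its core motif, TAATCC, or its reverse complement on the other strand, was looked for in the RefSeq promoter windows of 300 bases around each gene start. Windows of 8 of the 9 genes (all but Rp1) were searched, 10 in all. The core was present in 1 of them, that of Rpgrip1, and in 7.06% of all 32851 windows. The 30 bases around it, at chr14:52110863-52110892 on the plus strand of GRCm38.p6, are shown with the match in capitals. The match begins 28 bases before the RefSeq start and lies inside the gene as GENCODE draws it.
Rpgrip1 core: gctaaaaggcctGGATTAgtgtctcctcta
Binding of CRX there was not measured.

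On GRCm38 (GENCODE M21), Prph2 spans chr17:46910459-46924933 on the plus strand and Rom1 spans chr19:8927391-8929356 on the minus strand. Rp1 lies at chr1:3999557-4409241 (minus), Rpgr at chrX:10073621-10216920 (minus) and Rpgrip1 at chr14:52110704-52163546 (plus). Prom1 lies at chr5:43993620-44102032 (minus) and Pcdh15 at chr10:73099342-74649737 (plus). Impg1 lies at chr9:80313330-80465481 (minus) and Impg2 at chr16:56204313-56273756 (plus). Pcdh15 is 1550396 bp long, and whether reads in introns were counted is not given in sources used here. Several of these genes overlap others on the same strand, so their reads can be shared: Rp1 with Gm37483 and Gm6101, Rpgr with Srpx, Prom1 with Gm42716, and Pcdh15 with Gm15397, Gm47098 and Gm5778. Levels are given as CPM, the UMIs of a gene scaled to a fixed total for the class. They are not scaled to gene length, so no gene's level is compared with another's.

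After filtering, 23200 cells remained in the library labelled sponge and 39285 in the library labelled GFP, with medians of 2980.5 and 2415 UMIs per cell. The total counts were 132067896 and 123040365 UMIs. Mitochondrial UMIs took a median of 8.87% and 11.2% per cell. The libraries shared 290 barcodes. Cells were clustered without the 9 genes, and clusters were named from marker lists, giving 12 classes that resemble known cell types. The rod-like class held 5627 cells labelled sponge (24.3%) and 3980 cells labelled GFP (10.1%), and the cone-like class held 439 and 756 cells. Unnamed clusters held 42.4% and 43.0% of cells. The naming rule was set after the clusters were seen, and doublets were not removed because the caller marked 0 cells in each library. No score passed its automatic thresholds, which does not show that doublets are absent.

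All 9 genes were detected in every named class, and the counts of rod markers were used as a gauge of free rod RNA. The 12 rod markers made up 2.64% of UMIs in rod-like cells labelled sponge and 2.24% in those labelled GFP. In the 10 named classes other than rods and cones they made up 0.194% to 0.691% labelled sponge and 0.505% to 1.13% labelled GFP, lower in the library labelled sponge in 10 of 10 classes. Free RNA of 1 source was assumed to keep its genes in 1 ratio. Each gene's counts per rod marker count were therefore divided by the same quantity in rod-like cells of that library, called the ratio over rods below. Under that assumption, rod RNA spread over other cells would give a ratio over rods near 1. The assumption was not tested, and genes differed over the same markers. In bipolar-like cells labelled sponge the ratio over rods was 1.16 for Prph2 and 0.528 for Impg1, so 1 is not taken as an exact baseline for each gene. The gauge takes the 12 markers, Gnb1 among them, as made by rods alone, and that was not tested. Markers made by another class would lower its ratio over rods. A lower share of rod marker UMIs in a class raises the ratio over rods of a gene whose CPM is unchanged. The size of the ratio is therefore not compared between the libraries.

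**Figure D1:**
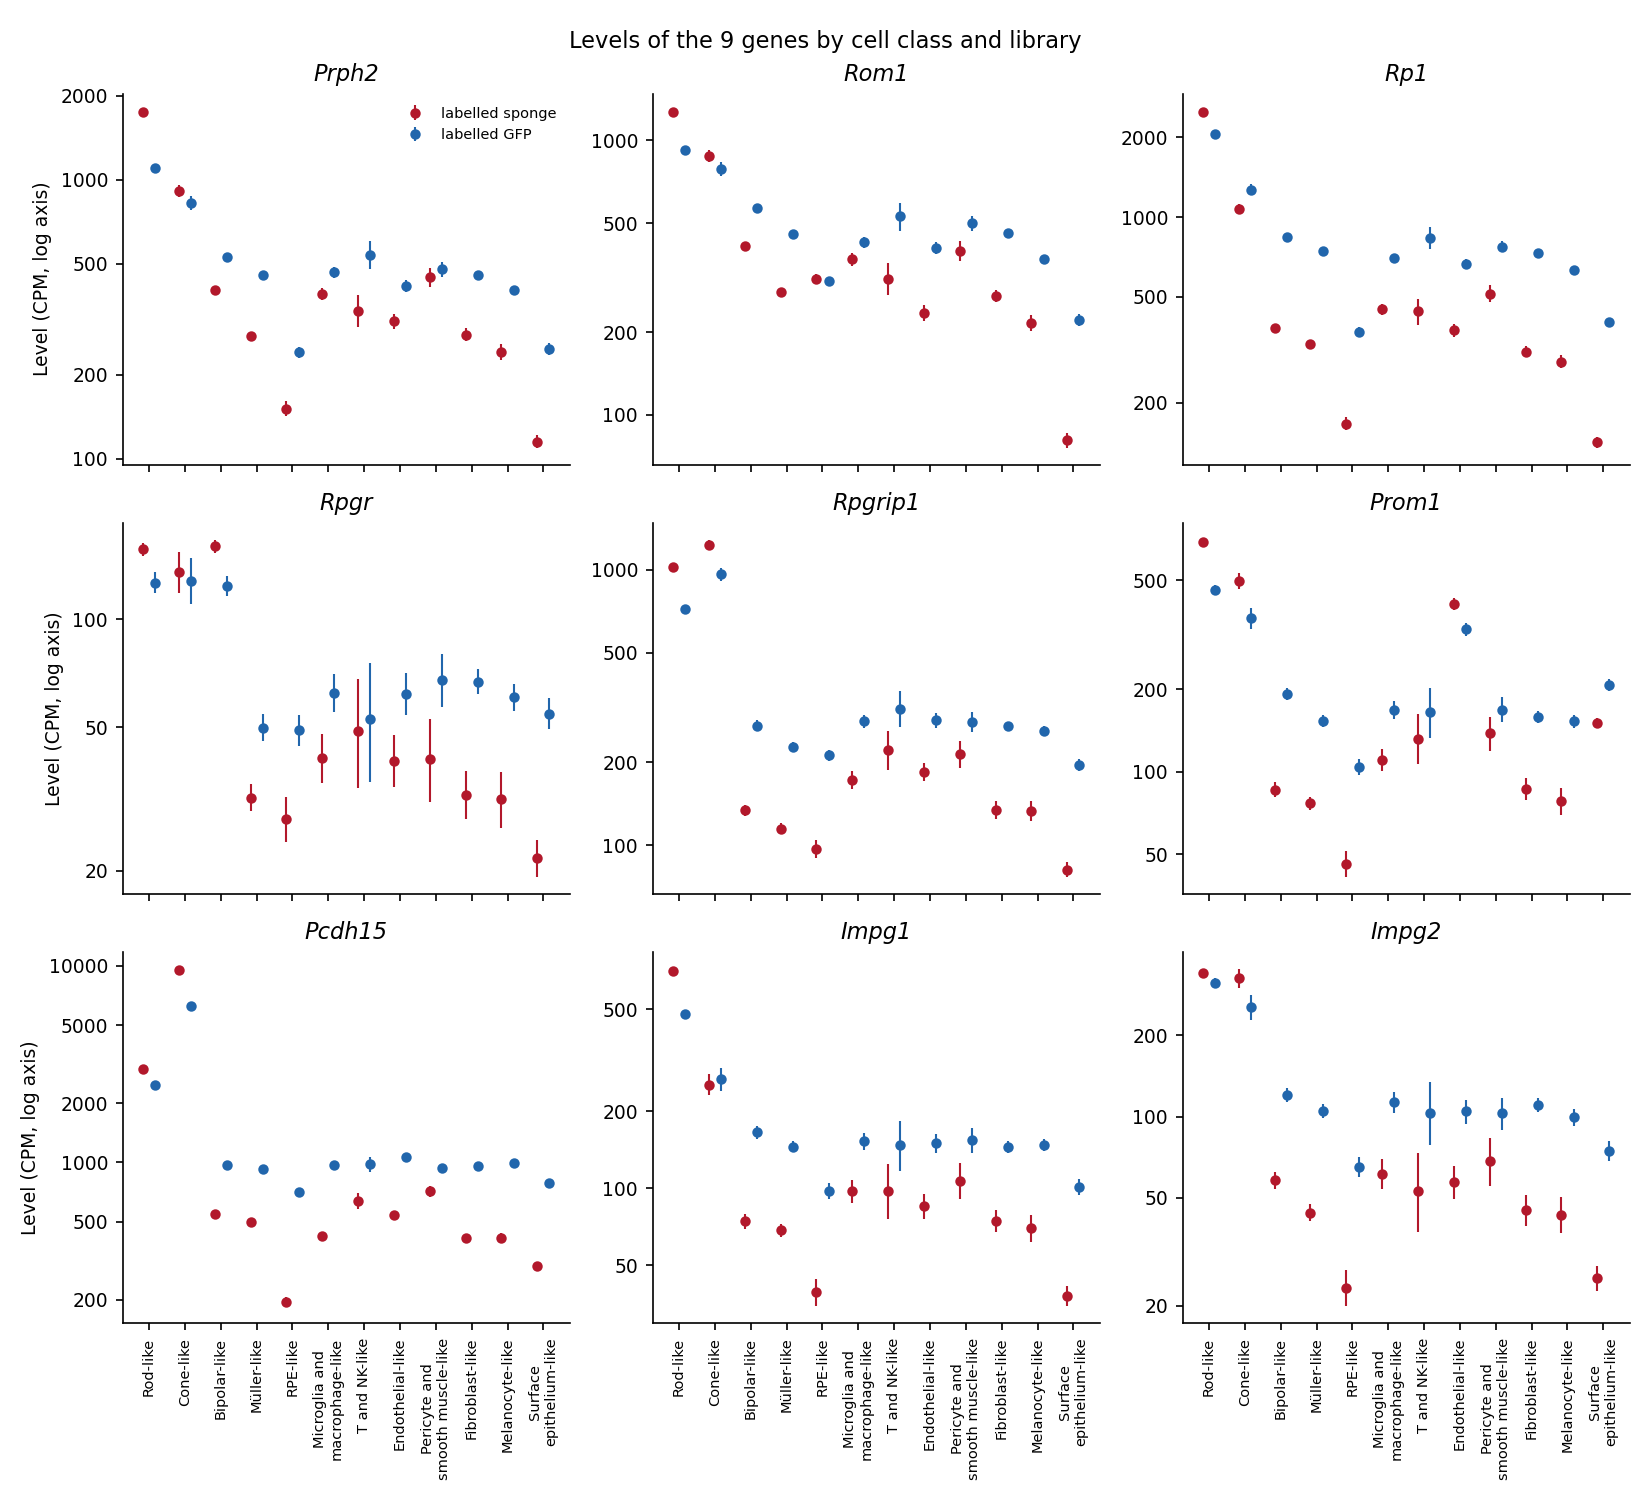
Level of each gene (CPM, log axis) in the 12 named classes, in the library labelled sponge (red, left) and the library labelled GFP (blue, right), with 95% Poisson intervals that cover counting error only. Photoreceptor-like classes stand highest for 8 genes in both libraries, Pcdh15 is highest in cone-like cells at 9522 and 6267 CPM, and Rpgr is about as high in bipolar-like cells.

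Prph2 followed rods. Its level was 1751 CPM (1729 to 1772) in rod-like cells labelled sponge and 1097 CPM (1073 to 1122) in those labelled GFP. In cone-like cells it was 914 CPM (869 to 959) labelled sponge and 825 CPM (779 to 872) labelled GFP. Among the 10 other named classes it ranged from 115 to 446 CPM labelled sponge and from 240.0 to 537 CPM labelled GFP. In those classes its ratio over rods was 0.850 to 1.16 labelled sponge and 0.941 to 1.03 labelled GFP. Prph2 outside photoreceptors thus kept close to the proportion it has in rods. With cells thinned to 1000 UMIs, 78.4% of rod-like cells labelled sponge and 65.1% of those labelled GFP held a Prph2 UMI, and unthinned shares were 94.5% and 81.3%. In Müller-like cells, which should lack the gene, the thinned shares were 25.5% and 35.7%, at median depths of 8154 and 2607 UMIs before thinning.

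Rom1, which assembles with Prph2, had 1268 CPM (1250 to 1286) in rod-like cells labelled sponge and 922 CPM (899 to 945) in those labelled GFP. Cone-like cells had 876 and 785 CPM labelled sponge and GFP. Rom1 differed from Prph2 in RPE-like cells, where its counts per rod marker count were 2.42 times those in rods labelled sponge and 1.47 times labelled GFP. The level there was 312 CPM (299 to 325) labelled sponge and 307 CPM (295 to 319) labelled GFP, and the intervals overlap. Rod markers made up 0.268% of UMIs in RPE-like cells labelled sponge and 0.505% in those labelled GFP. The highest Rom1 level lay in unnamed cluster 0, at 1413 and 1069 CPM. That cluster is led by haemoglobin genes, but its score for the rod list was 1.47, beside 1.48 for its best list. Rod markers made up 2.17% and 2.15% of its UMIs labelled sponge and GFP, against 2.64% and 2.24% in rod-like cells.

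Rp1 had 2495 CPM (2470 to 2521) in rod-like cells labelled sponge and 2057 CPM (2024 to 2092) in those labelled GFP. Cone-like cells had 1072 CPM (1024 to 1121) labelled sponge and 1267 CPM (1210 to 1326) labelled GFP. Per rod marker count, Rp1 was below its value in rods in every other named class, at 0.659 to 0.839 times labelled sponge and 0.798 to 0.860 times labelled GFP. Of all UMIs of each gene, rod-like cells held between 24.0% (Rpgr) and 51.5% (Impg1) in the library labelled sponge, and between 8.76% (Rpgr) and 15.02% (Impg1) in the library labelled GFP. Rod-like cells made up 24.3% and 10.1% of all cells in these libraries, so the Rpgr share lay below the share of cells in both.

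The Rpgr level was not highest in photoreceptors alone. Rod-like cells had 156 CPM (150.1 to 163) labelled sponge and 126 CPM (118 to 135) labelled GFP. Bipolar-like cells, the second-order neurons, had 159 CPM (152 to 166) labelled sponge and 123 CPM (116 to 131) labelled GFP, so rods and bipolar cells overlap in both libraries. Cone-like cells had 135 CPM (118 to 153) labelled sponge and 128 CPM (110.0 to 147) labelled GFP and overlap rods in both as well. Unnamed cluster 16, whose best marker list was that of amacrine cells, held 258 Rpgr UMIs of 1782823 labelled sponge and 498 of 3792751 labelled GFP. A high Rpgr level was thus not particular to bipolar-like cells among the neurons. Per rod marker count, Rpgr in bipolar-like cells was 5.12 times its value in rods labelled sponge and 1.96 times labelled GFP. In Müller-like cells it was at 31.9 CPM labelled sponge and 49.9 CPM labelled GFP, 1.15 and 0.897 times the value in rods. Bipolar-like cells thus held more Rpgr per rod marker count than rods did in both libraries. Rod markers made up 0.525% of their UMIs labelled sponge and 1.12% labelled GFP, so the sizes of the 2 ratios are not compared.

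Rpgrip1 was higher in cone-like than in rod-like cells in both libraries. Cone-like cells had 1233 CPM (1182 to 1286) labelled sponge and 962 CPM (912 to 1014) labelled GFP. Rod-like cells had 1019 CPM (1002 to 1035) labelled sponge and 721 CPM (701 to 741) labelled GFP. Per rod marker count, cones had 2.15 and 1.80 times the value in rods. In the other named classes this ratio ran from 0.636 to 1.09 labelled sponge and from 0.716 to 1.30 labelled GFP.

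Prom1 had 689 CPM (676 to 703) in rod-like cells labelled sponge and 461 CPM (446 to 478) in those labelled GFP. Cone-like cells had 496 CPM (463 to 530) labelled sponge and 363 CPM (333 to 395) labelled GFP. Endothelial-like cells came next, at 409 CPM (388 to 430) labelled sponge and 330 CPM (312 to 350) labelled GFP, and overlapped cone-like cells in the library labelled GFP. Per rod marker count, endothelial-like cells had 3.29 and 1.81 times the value in rods, and cells resembling surface epithelium had 2.98 and 1.99 times. In unnamed cluster 22, whose best marker list was that of horizontal cells but which was led by immunoglobulin genes, it was 2.14 and 1.42 times. Prom1 is widely used as a surface marker of endothelial and epithelial progenitors. Its reads may be shared with Gm42716, which also had the profile most like that of Prom1 (Pearson r of 0.968).

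Pcdh15 was higher in cone-like cells than in any other class. Cone-like cells had 9522 CPM (9378 to 9668) labelled sponge and 6267 CPM (6139 to 6397) labelled GFP, against 2977 CPM (2950 to 3006) and 2463 CPM (2426 to 2501) in rod-like cells. The cone level was thus 320% and 254% of the rod level. Per rod marker count it was 5.67 times the rod value labelled sponge and 3.43 times labelled GFP, and under other cell filters and class definitions it stayed between 4.75 and 6.68 labelled sponge and between 2.46 and 3.85 labelled GFP. Small unnamed clusters 34 (22 and 134 cells) and 35 (19 and 130 cells), led by the cone genes Arr3 and Pde6c, also stood above rods. Both carried genes of a further cell type. Of the top 10 genes, cluster 34 shared 4 with a bipolar-like cluster and cluster 35 shared 2 with a Müller-like cluster. Whether they hold doublets that contain cones was not tested, so they are not separate evidence on cones. Cluster 34 had 5338 CPM labelled sponge and 4082 CPM labelled GFP, and cluster 35 had 4988 and 4401 CPM. Among clusters with at least 50 cells in both libraries, the next after rods were unnamed. Cluster 13, whose best marker list was that of bipolar cells with 2 markers and which is led by Tafa2 and Grik1, had 2847 and 2183 CPM, and cluster 5, led by the melanocyte genes Oca2 and Tyr, had 2038 and 2050 CPM. Their ratios over rods were 3.41 and 1.62 for cluster 13, and 3.69 and 2.41 for cluster 5. Cluster 5 also had Lingo2 and Tafa2 among its top 10 genes, and its fibroblast score was 1.62 beside 2.41 for melanocytes. Whether it holds mixed cells was not tested, so it is not evidence on melanocytes. In the 10 other named classes, melanocyte-like cells among them, Pcdh15 was at most 712 CPM labelled sponge and 1065 CPM labelled GFP. The thinned share of cone-like cells with a Pcdh15 UMI was 83.0% labelled sponge and 93.3% labelled GFP, which runs against the CPM, so no order was read from it.

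Impg1 was weighted towards rods. Rod-like cells had 707 CPM (693 to 720.3) labelled sponge and 480 CPM (464 to 496) labelled GFP. Cone-like cells had 254 CPM (231 to 279) labelled sponge and 266 CPM (240.5 to 294) labelled GFP, 0.637 and 0.748 times the rod value per rod marker count. In the other named classes that ratio was 0.528 to 0.730 labelled sponge and 0.609 to 0.926 labelled GFP. Impg2, the transmembrane member of the pair, was shared more evenly. Rod-like cells had 341 CPM (332 to 351) labelled sponge and 311 CPM (298 to 325) labelled GFP, and cone-like cells had 324 CPM (298 to 352) labelled sponge and 253 CPM (228 to 281) labelled GFP. The intervals of rods and cones overlap in the library labelled sponge and not in the library labelled GFP.

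**Figure D2:**
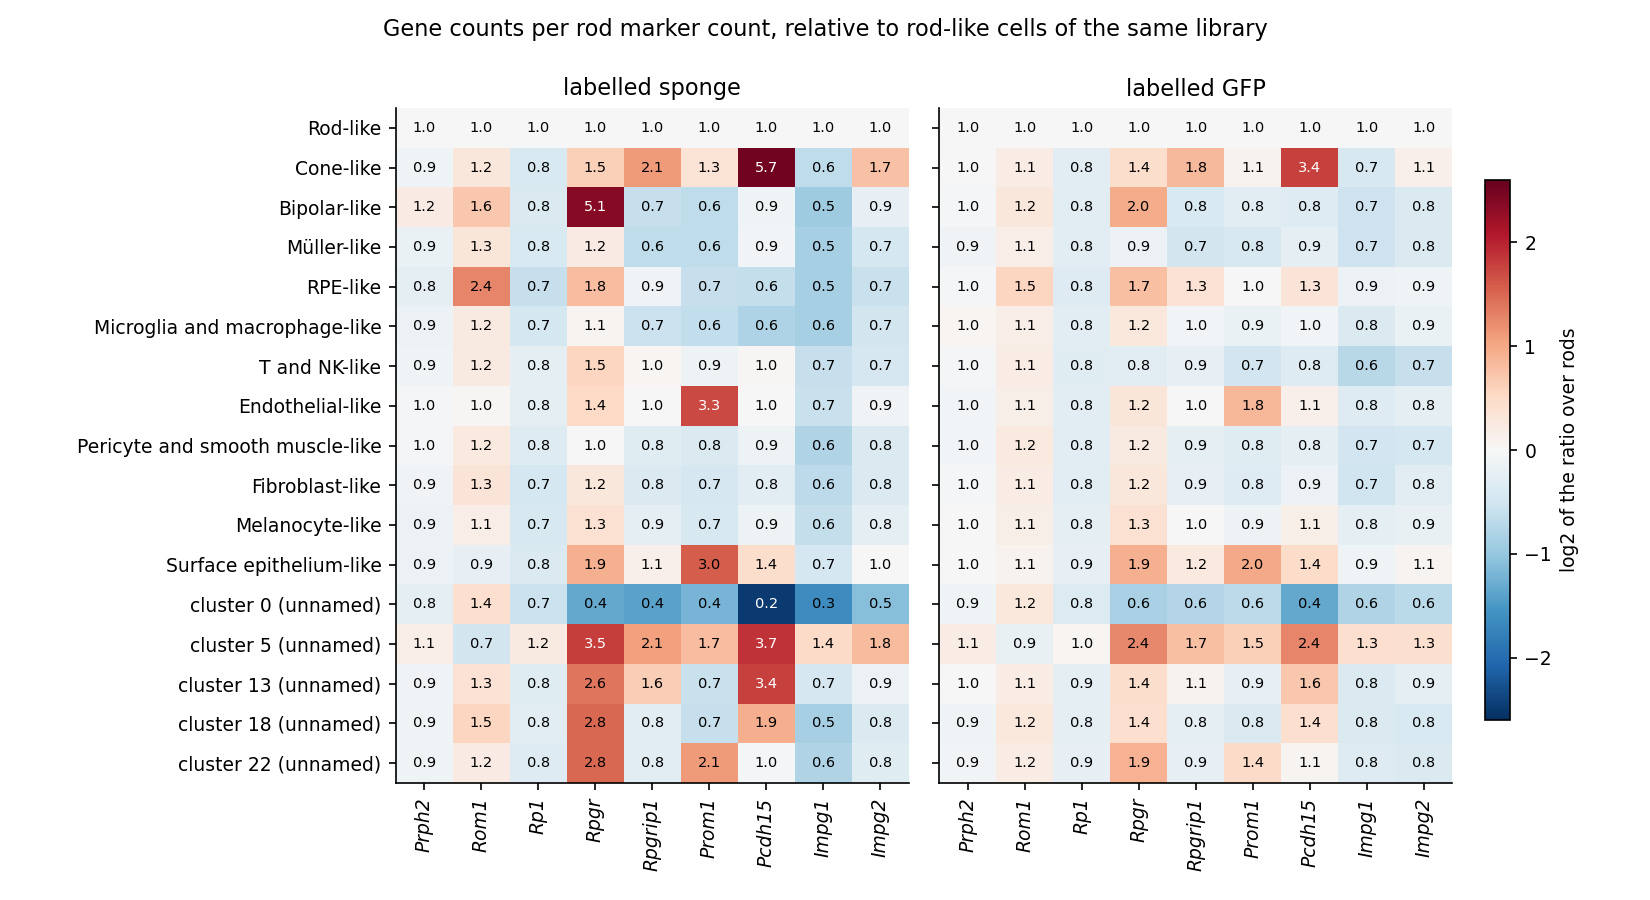
Counts of each gene per rod marker count, divided by the same ratio in rod-like cells of that library, for the library labelled sponge (left) and the library labelled GFP (right). Numbers give the ratio and colours its log2. Prph2 stays near 1 across classes, while Pcdh15 in cone-like cells (5.67 and 3.43), Rpgr in bipolar-like cells (5.12 and 1.96), Prom1 in endothelial-like cells (3.29 and 1.81) and Rom1 in RPE-like cells (2.42 and 1.47) stand above it.

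The libraries were then compared within each class, as a difference between 1 library and another. In rod-like cells 9 of 9 genes had a log2 ratio (labelled sponge over labelled GFP) above 0, as did 56.9% of the 15716 genes measured in rods. None of the 9 differed 2-fold or more, which 1.76% of measured genes did upwards and 4.06% downwards. The median log2 ratio of the 9 genes was 0.46, against 0.08 over all genes measured. The rod markers themselves moved the same way: 11 of 12 were above 0, with a median of 0.28 and a summed level of 26435 and 22371 CPM.

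The disc rim genes Prph2 and Rom1 had log2 ratios of 0.67 (0.64 to 0.71) and 0.46 (0.42 to 0.50) in rod-like cells, and their intervals do not overlap. Rp1 had 0.28 (0.25 to 0.31). At the connecting cilium Rpgr had 0.31 (0.20 to 0.42) and Rpgrip1 had 0.50 (0.45 to 0.55). Prom1 had 0.58 (0.52 to 0.64) and Pcdh15 had 0.27 (0.25 to 0.30). Impg1, the gene with the miR-181 site, had 0.56 (0.50 to 0.62), inside the range of the other genes, and Impg2 had 0.13 (0.06 to 0.20).

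Under the 11 other settings tried, the ratios of Prph2 (0.41 to 0.81), Rom1 (0.09 to 0.68), Rpgrip1 (0.25 to 0.65), Prom1 (0.34 to 0.73) and Impg1 (0.32 to 0.75) stayed above 0. Those of Rp1 (-0.016 to 0.47), Rpgr (-0.060 to 0.36), Pcdh15 (-0.17 to 0.46) and Impg2 (-0.18 to 0.25) crossed it. Scaled to the rod markers in place of all UMIs, the median of the 9 genes was 0.22, and 8 of them were above 0.

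**Figure D3:**
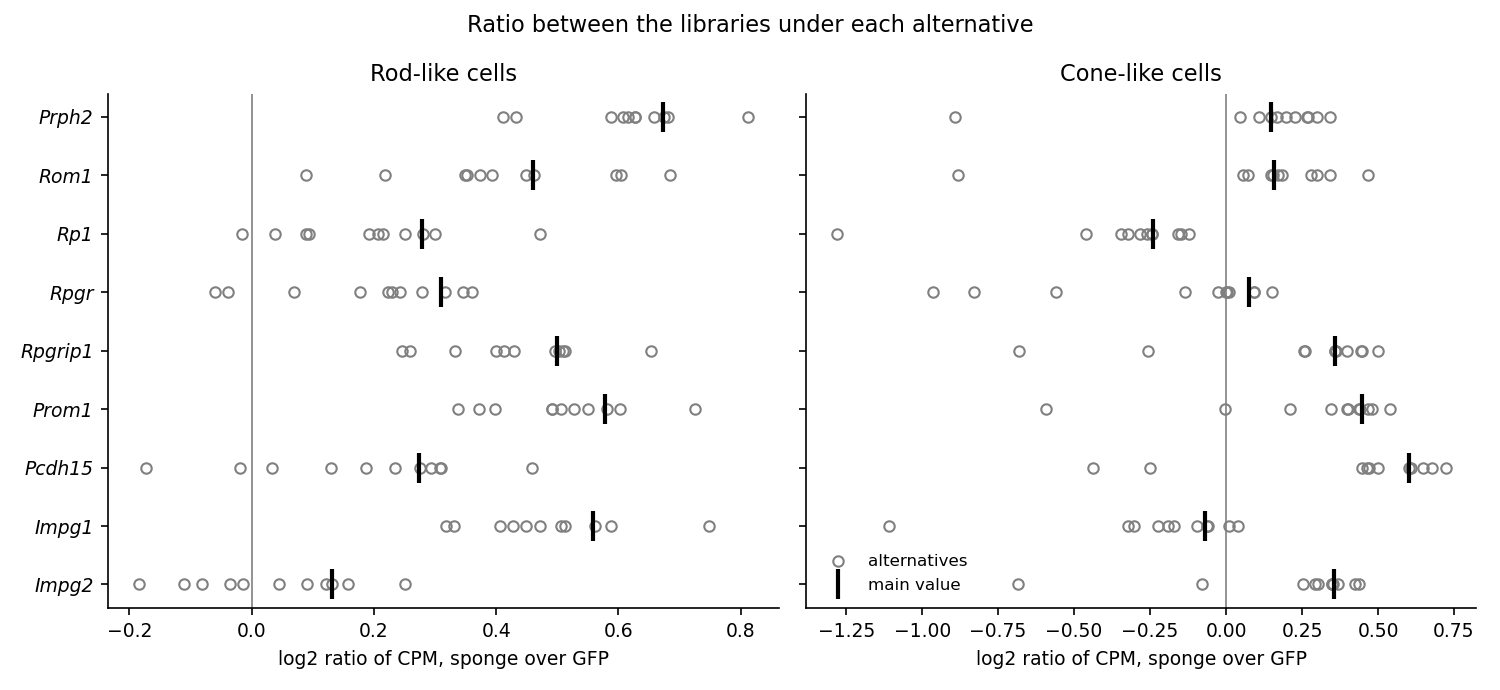
log2 ratio of CPM, library labelled sponge over library labelled GFP, of the 9 genes in rod-like (left) and cone-like cells (right). Black bars are the values in the text, open circles the 11 other settings and the grey line marks 0. In rods Prph2 stays between 0.41 and 0.81, while Impg2 runs from -0.18 to 0.25.

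Other measures of the rod-like cells moved between the libraries as well. Their median depth was 2346 UMIs labelled sponge and 1639 labelled GFP, and their mitochondrial share was 8.86% and 13.9%. Of 20 marker lists of other cell types, 19 had a measured gene in rods, and 15 of these had a median below 0 and 4 a median above it. Cone markers summed to 714 and 1032 CPM (0 of 10 above 0), RPE markers to 787 and 1245 CPM (1 of 8 above 0) and red cell markers to 162 and 799 CPM, with Slc4a1 at 0 labelled sponge. Surface epithelium markers went the other way, at 241 and 142 CPM (5 of 8 above 0). The rod-like class also split differently: at the finer clustering, cluster 0 held 4281 of the rods labelled sponge and 859 of those labelled GFP, while cluster 1 held 1032 and 2991. Prph2 was at 0.66 in cluster 0 and 0.63 in cluster 1, close to its 0.67 in all rods, while Prom1 was at 0.40 and 0.49, below its 0.58. Pcdh15 was at -0.019 and 0.13 and Impg2 at -0.035 and -0.081 within them. The part of depth, free RNA or sub-cluster in these ratios was not tested.

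**Figure D4:**
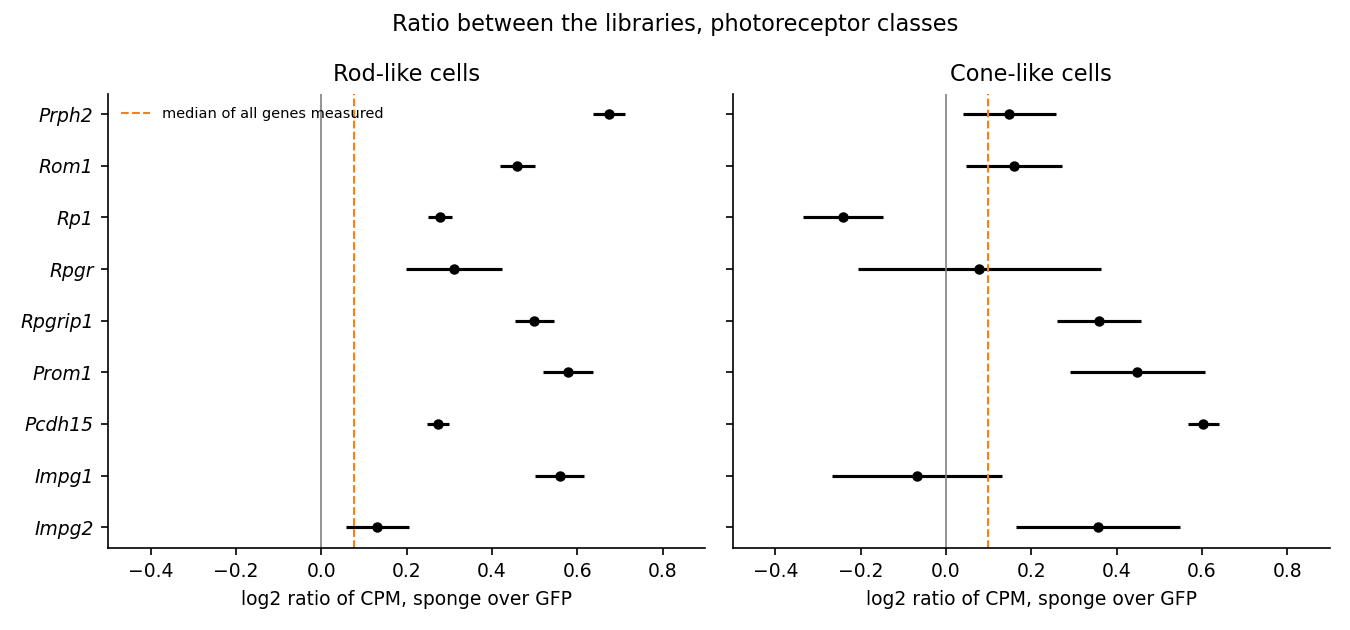
log2 ratio of CPM, library labelled sponge over library labelled GFP, of the 9 genes in rod-like cells (left) and cone-like cells (right), with 95% intervals for counting error, a grey line at 0 and a dashed orange line at the median of all genes measured (0.08 in rods, 0.10 in cones). All 9 genes lie above 0 in rods, and Rp1 and Impg1 lie below 0 in cones.

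In cone-like cells 7 of the 9 genes were above 0, where 58.8% of the 11111 genes measured in cones were, and 0 of 9 differed 2-fold or more (3.43% of genes upwards, 4.45% downwards). The median of the 9 genes was 0.16, against 0.10 over all genes. Pcdh15 had the highest ratio at 0.60 (0.57 to 0.64), then Prom1 at 0.45 (0.29 to 0.61), Rpgrip1 at 0.36 (0.26 to 0.46) and Impg2 at 0.36 (0.16 to 0.55). Rom1 had 0.16 (0.05 to 0.27) and Prph2 had 0.15 (0.04 to 0.26). Rpgr at 0.08 (-0.21 to 0.36) and Impg1 at -0.07 (-0.27 to 0.13) did not differ beyond counting error. Rp1 was lower, at -0.24 (-0.34 to -0.15).

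Cone-like cells differed between libraries in more than these genes. The 10 cone markers were all above 0, with a median of 1.09 and sums of 20798 CPM labelled sponge and 10116 CPM labelled GFP. Set against the cone markers, all 9 genes were lower in the library labelled sponge, with a median of -0.88. Median depth was 3561 UMIs labelled sponge and 1787 labelled GFP. Among cone-like cells with 1500 to 3000 UMIs, 130 labelled sponge and 527 labelled GFP, 3 of 9 genes were above 0 and Pcdh15 was at -0.25. Another scaling, by the median of ratios, subtracted 0.10 from all genes and gave 6 of 9 above 0 with a median of 0.06. Rod markers in cone-like cells summed to 14916 and 16609 CPM, 2 of 12 above 0, and the 4 measured Schwann cell markers were all above 0 (327 and 54.2 CPM), with Cldn19 at 0 labelled sponge.

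In the 10 other named classes the 9 genes gave 90 ratios, of which 87 were below 0, 32 of them past 2-fold lower. In bipolar-like cells 8 of 9 were below 0 and 5 past 2-fold lower, where 49% and 10.2% of all measured genes were. All 9 were below 0 in Müller-like cells, 3 past 2-fold (45.1% and 7.99% of genes). RPE-like cells had 8 below 0 and 6 past 2-fold (62.9% and 17.9%). The 9 genes were all lower in fibroblast-like cells, 5 past 2-fold (51.5% and 8.54%), in melanocyte-like cells, 4 past 2-fold (57.1% and 10.4%), and in surface epithelium-like cells, 8 past 2-fold (67.6% and 23.2%). In microglia and macrophage-like cells 9 were below 0 and 1 past 2-fold (54.8% and 9.39%). T and NK-like cells had 9 below 0 and 0 past 2-fold (56.4% and 10%), endothelial-like cells 8 and 0 (47.7% and 6.15%), and pericyte and smooth muscle-like cells 9 and 0 (45.5% and 5.03%). The median of the 9 genes per class ran from -1.39 to -0.39, against -0.36 to 0.06 for all genes. The median-of-ratios shift, which is subtracted from a ratio, was -0.22 in RPE-like, -0.11 in T and NK-like, -0.12 in melanocyte-like and -0.36 in surface epithelium-like cells, so that relative to it the ratios there lie higher by that amount. Rod marker UMIs, whose share was lower labelled sponge in each of these classes, moved with the ratios, and their part was not tested.

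The 3 ratios above 0 were Rpgr in bipolar-like cells, at 0.37 (0.26 to 0.48), Prom1 in endothelial-like cells, at 0.31 (0.20 to 0.42), and Rom1 in RPE-like cells, at 0.02 (-0.06 to 0.11). The bipolar-like and endothelial-like pairs differed beyond counting error, and Rom1 in RPE-like cells did not. Prom1 in surface epithelium-like cells, whose ratio over rods was also high, was lower, at -0.46 (-0.56 to -0.37). Median depth was 6709.5 UMIs labelled sponge and 2368.5 labelled GFP in bipolar-like cells, and 5966 and 2689 in endothelial-like cells. The bipolar-like class also split differently: cluster 10 held 1260 cells labelled sponge and 289 labelled GFP, while cluster 3 held 587 and 2667. The part of depth or of this split in the ratios was not tested.

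Other genes of the outer segment, cilium and matrix were taken as a list of 88, of which 87 were found (BC027072 was not analysed here). In rod-like cells 84 were measured, 70 above 0 and 14 below, with a median of 0.35 and 0 past 2-fold, where 56.9% of all genes measured in rods were above 0, with a median of 0.08. The whole interval lay above 0 for 58 genes and below 0 for 2. The share of all genes measured in rods with such intervals is not given here, so no excess is read from these counts. The highest by the interval bound nearest 0 were Bbs9 of the BBSome, the coat that carries membrane proteins out of cilia, at 1116 and 668 CPM (log2 ratio 0.74), the Rp1 relative Rp1l1 at 245 and 146 CPM (0.75), the centriole appendage gene Cep164 at 269 and 162 CPM (0.73) and the transition zone gene Tmem67 at 39.1 and 21.3 CPM (0.88). The 2 lowest were the centrin Cetn2 at 44.2 and 71.5 CPM (-0.69) and the transport gene Ift20 at 86.1 and 106 CPM (-0.30).

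By role, all 7 disc and axoneme genes (median 0.45), all 9 BBSome genes (0.41) and all 7 kinase and tubulin genes (0.53) were above 0 in rod-like cells. Transport genes were above 0 in 18 of 20, transition zone and centriole genes in 18 of 21 and lipidated cargo genes in 6 of 7. Usher and adhesion genes were split, 4 of 8 above 0. Among them Whrn, which encodes the scaffold protein whirlin, had 118 and 76.4 CPM (0.62). Of the matrix genes, 1 of 5 was above 0, namely Egflam (pikachurin) at 526 and 353 CPM (0.58), while Rbp3, the retinoid carrier of the matrix, had 458 and 468 CPM (-0.03). Whrn, Egflam and Rbp3 were named after their values were seen. In cone-like cells 76 of the list were measured, 53 above 0 and 23 below, with a median of 0.23, where 58.8% of all genes measured in cones were above 0, with a median of 0.10. The whole interval lay above 0 for 22 genes and below 0 for 4, again without the share of all genes measured in cones. The 2 genes past 2-fold higher, as were 3.43% of all genes, were Wdr35 (60 and 23 UMIs) and Cib2 (24 and 9 UMIs), both thinly counted.

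**Figure D5:**
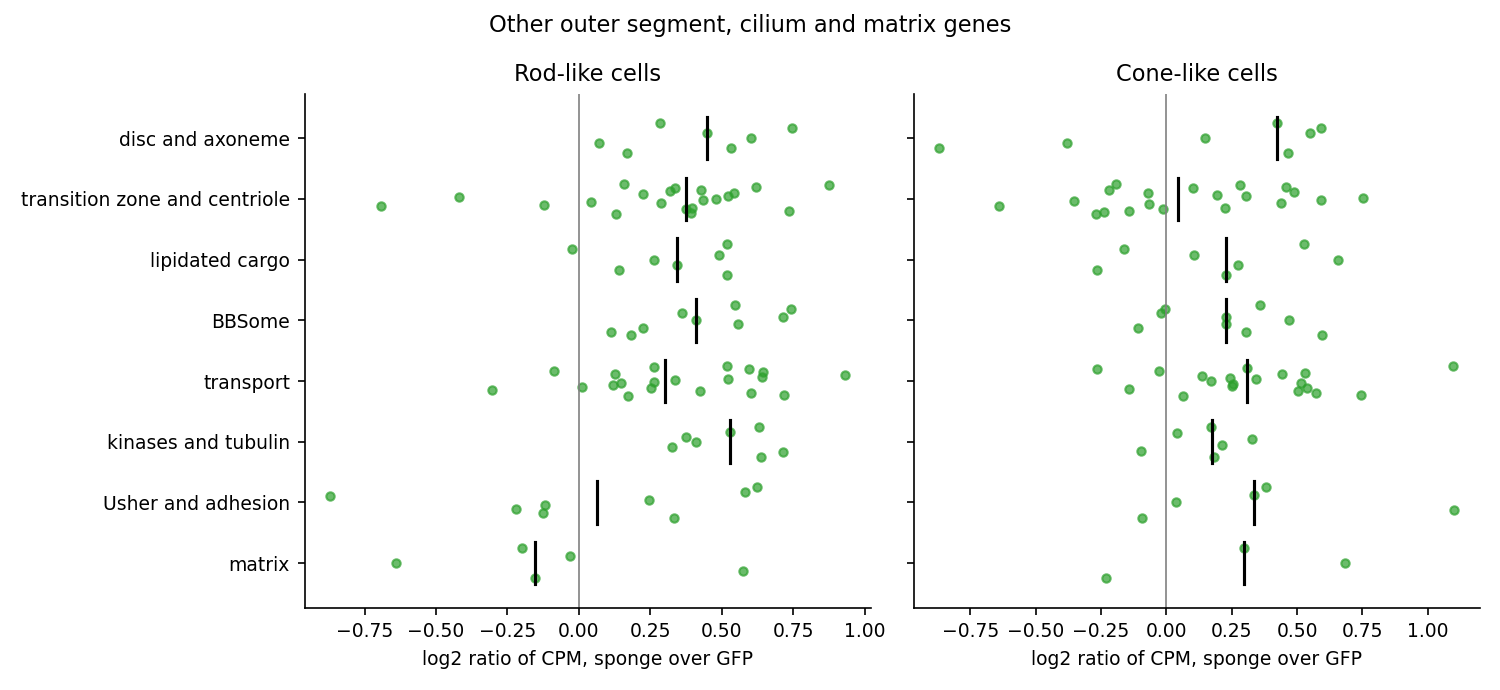
log2 ratio of CPM, library labelled sponge over library labelled GFP, of the other outer segment, cilium and matrix genes in rod-like (left) and cone-like cells (right), by role. Each point is 1 measured gene and black bars are group medians. In rods the disc, BBSome and kinase groups lie wholly above 0, while the matrix group has 1 of 5 above 0.

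The genes whose profile over the 12 classes in both libraries (24 values, log2 of CPM plus 1) was most like that of each member are given as a description, since the values share libraries and free rod RNA. For Prph2 they were Guca1b (Pearson r of 0.992) and Rdh12 (0.9897), and for Rom1 they were Unc119 (0.961), Ccdc126 (0.961) and Nxnl1 (0.959). Rp1 came with the rod marker Pdc (0.9897) and Pcmtd2 (0.988), and Impg1 with Rp1 itself (0.985), Pcmtd2 (0.985) and Pdzph1 (0.985). Rpgrip1 came with Lhfpl3 (0.993) and Gm32442 (0.989), and Impg2 with Frmpd2 (0.991), Mak (0.9905) and Cerkl (0.987). Pcdh15 came with Gm32442 (0.982), Crxos (0.979) and 5430419D17Rik (0.978). Rpgr came with Fam78b (0.968), Syt1 (0.967) and Pclo (0.964). After Gm42716, Prom1 came with Ipmk (0.940) and Dnm3 (0.914).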

How the data were processed

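The deposited matrices hold UMI counts per gene and cell barcode, without normalization, made with Cell Ranger 7.0.0 on mm10 per the submitters' processing notes. Kept barcodes had 300 or more genes, 500 or more UMIs and a mitochondrial share of 25% or less. Cells of both libraries were clustered together (scanpy 1.11.5, 2000 variable genes, 30 principal components, Leiden resolution 1, leidenalg 0.10.2) without the 9 genes, the other pathway genes and eGFP, giving 36 clusters. A cluster took a class name with at least 3 markers 2-fold up, a rival list below 0.5 of its score, a score of 0.5 or more of the best for its class, and fewer than 3 of its top 10 genes shared with a larger cluster of another class. Scrublet marked 0 cells at its thresholds of 0.647 (labelled sponge) and 0.550 (labelled GFP).

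CPM came from counts added over the cells of a class in a library. A gene was measured with 20 counts over both libraries. Intervals are 95%: exact Poisson for CPM, exact binomial for ratios (0.5 added to both counts) and Clopper-Pearson for shares. No test was run, since each group is 1 library. The ratio and its interval were tested on simulated data. Those data were drawn with counting error alone, so they cannot show how the intervals hold for differences between cells or libraries. All 9 genes are named. Of the pathway list, the 4 highest and 4 lowest with 50 counts were to be named, by the interval bound nearest 0, and 2 had an interval below 0. The 3 most similar genes of each were to be named among those with 200 counts in a class, and some of them are not reported here. The members, lists and markers were chosen with earlier results of these data known.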

Additional observations from a re-analysis of the deposited data

Results flagged for a closer look

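Rp1 had opposite directions in rods and cones. Its log2 ratio, library labelled sponge over library labelled GFP, was -0.24 (-0.34 to -0.15) in cone-like cells and 0.28 (0.25 to 0.31) in rod-like cells. Each direction rests on 1 library per group, and the difference between the classes was not tested. In cones it stayed below 0 under all 11 alternatives (-1.28 to -0.12), and in rods it was below 0 under 1 of them, among cells with 1500 to 3000 UMIs (-0.016). Rod markers in cone-like cells were also lower labelled sponge, at 14916 and 16609 CPM, with 2 of 12 above 0 and a median of -0.54. The part of free rod RNA in the Rp1 ratio of cone-like cells was not tested.

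The eGFP feature, which enters no comparison above, was counted at 5484 UMIs in cells labelled sponge and at 12 UMIs in cells labelled GFP, the control. Cells resembling RPE held 4730 and 9 of them, and rod-like cells 145 and 1.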

How the results depend on the processing

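No paired analysis was possible because each group holds 1 library. In rod-like cells the median of the 9 genes, 0.46, was 0.37 with median-of-ratios scaling, 0.22 scaled to rod markers, 0.25 with the stricter cell filter (395 rods labelled GFP left), 0.35 with cells weighted equally, 0.35 thinned, 0.60 with classes by highest marker score, 0.33 at Leiden resolution 2, and, chosen after seeing the data, 0.24 among cells with 1500 to 3000 UMIs and 0.33 in finer cluster 1 alone. The single genes that turned below 0 were Impg2 (-0.11) scaled to rod markers; Rpgr (-0.039), Pcdh15 (-0.17) and Impg2 (-0.18) under the stricter filter; Pcdh15 (-0.019) and Impg2 (-0.035) at resolution 2; Rp1 (-0.016) and Impg2 (-0.014) at 1500 to 3000 UMIs; and Rpgr (-0.060) and Impg2 (-0.081) in finer cluster 1. The pathway list's median, 0.35, was 0.19 with the stricter filter and 0.27 scaled by median of ratios.

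In cone-like cells, scaling to cone markers gave a median of -0.88 in place of 0.16 and left 0 of 9 genes above 0, with Prph2 at -0.89, Rom1 at -0.88, Rpgrip1 at -0.68, Prom1 at -0.59, Pcdh15 at -0.44 and Impg2 at -0.68. At 1500 to 3000 UMIs the median was -0.25 with 3 of 9 above 0, Rpgrip1 at -0.26, Prom1 at -0.0028 and Pcdh15 at -0.25. The stricter filter put Impg2 at -0.078, with 5 of 9 above 0. Rpgr, at 0.08 within counting error, was -0.56 under the stricter filter, -0.83 at 1500 to 3000 UMIs and -0.96 scaled to cone markers. The median was 0.34 with classes by highest marker score and 0.30 with the unnamed cone clusters added; these clusters and the UMI window were also chosen after seeing the data. The thinned share of rods with a Prph2 UMI, 78.4% and 65.1% labelled sponge and GFP, was 80.6% and 70.6% with the stricter filter, and 80.8% labelled sponge with classes by highest marker score. Of 99 single-gene values in rods, 33 stayed within the counting interval of the main value, 56 left it and 10 more left it with the sign reversed. Of another 99 values in cones, 60 stayed within it, 29 left it and 10 more left it with the sign reversed. The causes were not tested. Rods and cones were 1 cluster each, so taking each cluster alone changed nothing. Without shared barcodes 9 of 9 genes were above 0 in rods and 7 of 9 in cones, and without the top 10% of doublet scores 9 and 6.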
